A study of Mus musculus with 24 samples.

Results

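The BCL2 family decides whether a cell opens its mitochondria and dies. The 10 members described here were taken by gene symbol from the count table: the pro-survival genes Bcl2, Bcl2l1, Mcl1 and Bcl2a1b, the pore-forming effectors Bax and Bak1, and the BH3-only genes Bid, Bcl2l11, Pmaip1 and Bbc3. All 10 were present among the 24046 genes of the table, and 10 of 10 passed the filter on low counts that left 14099 genes for testing.

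RNA was measured in 24 libraries of leukaemia cells from the bone marrow of moribund transplanted mice. The titles of 3 of the 4 sets carry the mark 2ary and those of VavCre Arid2 do not. The leukaemias carry MLL-AF9, a fusion oncogene, in every group, and every group also carries a Cre recombinase. The groups are, with 3 libraries each, Arid1b fl/fl VavCre+ and its Arid1b +/+ VavCre+ control, Arid2 fl/fl VavCre+ and its Arid2 +/+ VavCre+ control, and the floxed and control groups of the MxCre set titled A2 and of the MxCre set titled A1b. Titles and cell type entries of the MxCre sets name different genes (A2 is described as Arid1b, A1b as Arid2), so these sets go by title here and no deleted gene is assigned to them. Vav drives Cre throughout the blood system, and Mx drives it after interferon induction, so Cre was also present in the controls. The treatment label says that recipients of MxCre+ cells, control and knockout, received pIpC, an interferon-inducing RNA, at day 21 from transplantation, in 3 doses of 12.5 µg per g of body weight within a week. No label gives the age or strain of the mice, or says whether libraries of a group come from separate mice, so the p-values measure the spread between these libraries.

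Pro-survival BCL2 proteins hold the effectors BAX and BAK in check. BH3-only proteins bind the pro-survival proteins and release or directly trigger the effectors, which then permeabilise the outer mitochondrial membrane, free cytochrome c and start the caspases. Normal and malignant myeloid cells are known to rely strongly on MCL1 and BCL2, and BCL2 is the target of venetoclax, a drug used in acute myeloid leukaemia.

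Library totals ran from 12069153 to 38315410 counts. Levels are given as CPM, read counts scaled to library size with trimmed-mean factors, and no control group was shared between sets. The blood and leukaemia genes Ptprc (394 to 790 CPM), Itgam (262 to 994 CPM), Spi1 (245 to 659 CPM) and Meis1 (32.8 to 157 CPM) were detected in all 24 libraries. Hoxa9 and Hoxa10, from the same list, varied more widely, at 20.1 to 444 CPM and 0.391 to 153 CPM. Neither targeted gene was called by edgeR: Arid1b averaged 164 ± 22.8 CPM in VavCre Arid1b floxed and 257 ± 96.3 CPM in control libraries (SD, n = 3 each; edgeR adjusted p = 0.407), and Arid2 averaged 256 ± 51.6 CPM in VavCre Arid2 floxed and 299 ± 125 CPM in control libraries (SD, n = 3 each; edgeR adjusted p = 0.802). Arid1b was lower in all 3 floxed libraries (140 to 184 CPM) than in the controls (186 to 367 CPM), while the arms of Arid2 overlapped. The log2 fold change of Arid1b was -0.65 in VavCre Arid1b and -0.57 in VavCre Arid2. That of Arid2 was -0.62 in VavCre Arid1b and -0.22 in VavCre Arid2, so neither fall was particular to the gene's own set. Counts over the whole gene need not fall where floxed exons are lost, so these values check the labels only weakly. Libraries expressing the Y-linked gene Kdm5d were unevenly spread: 0 of 3 floxed and 3 of 3 control libraries in VavCre Arid1b, 1 of 3 floxed and 0 of 3 control in VavCre Arid2, 3 of 3 floxed and 0 of 3 control in MxCre titled A2, and 1 of 3 floxed and 2 of 3 control in MxCre titled A1b. In the VavCre Arid1b and MxCre titled A2 sets the sex of the cells and the floxed arm therefore cannot be told apart. Control 3 of VavCre Arid1b, floxed 3 of MxCre titled A2 and floxed 2 of MxCre titled A1b stood apart in earlier results of these data, and the summed level of 8 erythroid genes reached 561 CPM in MxCre titled A2 floxed and 374 CPM in MxCre titled A1b floxed libraries.

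The promoters of the members that varied most are shown first, with those of the mouse Bcl2a1 copies Bcl2a1a and Bcl2a1d. How far reads of the copies can be told apart depends on their transcripts, described below, and not on promoter likeness. Sequences are from RefSeq on GRCm38.p6, run 5′ to 3′ on the gene's own strand and cover 250 bases before to 50 bases after the annotated start. In the 3 Bcl2a1 promoters capitals mark GAGGAA, the core read by the myeloid factor PU.1 (Spi1), or its reverse complement TTCCTC, searched on both strands. They lie at chr9:89199023-89199322 on the plus strand for Bcl2a1b, at chr9:88956670-88956969 on the plus strand for Bcl2a1a and at chr9:88731801-88732100 on the minus strand for Bcl2a1d.

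Bcl2a1b: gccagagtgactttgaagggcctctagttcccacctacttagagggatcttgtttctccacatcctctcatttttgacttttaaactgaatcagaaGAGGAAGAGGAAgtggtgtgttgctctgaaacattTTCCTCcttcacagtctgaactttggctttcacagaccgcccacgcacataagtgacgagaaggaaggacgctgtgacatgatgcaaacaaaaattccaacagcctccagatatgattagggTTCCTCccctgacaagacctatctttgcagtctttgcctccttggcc
Bcl2a1a: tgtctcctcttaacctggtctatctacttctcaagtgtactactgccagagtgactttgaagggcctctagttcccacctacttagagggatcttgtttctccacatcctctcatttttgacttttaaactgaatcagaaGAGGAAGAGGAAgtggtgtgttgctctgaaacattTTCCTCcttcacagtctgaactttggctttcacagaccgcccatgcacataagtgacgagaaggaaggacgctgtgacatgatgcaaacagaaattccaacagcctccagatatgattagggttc
Bcl2a1d: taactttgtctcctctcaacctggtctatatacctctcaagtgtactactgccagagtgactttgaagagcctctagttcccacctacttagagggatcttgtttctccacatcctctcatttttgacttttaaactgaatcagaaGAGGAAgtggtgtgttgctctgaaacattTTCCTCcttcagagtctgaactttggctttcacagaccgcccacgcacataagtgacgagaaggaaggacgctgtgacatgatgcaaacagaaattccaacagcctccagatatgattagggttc

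The Bcl2a1b window held 4 matches, the Bcl2a1a window 3 and the Bcl2a1d window 2. The Bcl2a1a and Bcl2a1d windows end inside the stretch that forms the last Bcl2a1b match, so that match could not be found in them. The first 2 matches of Bcl2a1b follow each other directly, with no overlap. At least 1 match occurs in 28.3% of all 32851 RefSeq mouse promoters of this length. Bcl2a1b and Bcl2a1a were identical at 254 of 256 aligned bases (99.2%), Bcl2a1b and Bcl2a1d at 247 of 250 (98.8%), and Bcl2a1a and Bcl2a1d at 288 of 294 (98.0%).

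The Bcl2 promoter, at chr1:106714241-106714540 on the minus strand, is shown next. Capitals mark TGACGT, a core of the cyclic AMP response element, searched on both strands. Matches to GAGGAA or TTCCTC are not marked or counted in it.

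Bcl2: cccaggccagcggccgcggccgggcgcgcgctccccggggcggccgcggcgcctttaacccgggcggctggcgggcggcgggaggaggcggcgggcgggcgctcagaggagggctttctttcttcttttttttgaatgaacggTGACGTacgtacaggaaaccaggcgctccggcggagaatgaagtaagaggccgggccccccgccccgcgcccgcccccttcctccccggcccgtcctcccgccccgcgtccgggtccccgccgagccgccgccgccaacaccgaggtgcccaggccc

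It held 1 match to TGACGT, and 7.5% of all promoters hold at least 1. The sequence TTCCTC, marked in the Bcl2a1 promoters, also occurs in this Bcl2 window, so the windows are not contrasted by that core. The GC content of the Bcl2 window was 76.0%, above 96.9% of the promoters, while that of Bcl2a1b was 46.7%.

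The members differ widely in abundance once exon length is taken into account. Mcl1, a short-lived pro-survival protein, had the highest median at 94.6 CPM per kb of exon. The effectors Bak1 at 63.8 CPM per kb and Bax at 57.3 CPM per kb followed. Bid, the BH3-only protein cut by caspase 8, had a median of 35.8 CPM per kb and Pmaip1, which encodes NOXA, the antagonist of MCL1, 20.7 CPM per kb. Bcl2 stood at 10.2 CPM per kb, Bbc3 (PUMA, a p53 target) at 8.21 CPM per kb and Bcl2l1 (BCL-XL) at 6.498 CPM per kb. Bcl2l11 (BIM) at 3.79 CPM per kb and Bcl2a1b (a mouse copy of A1, an NF-kB target of myeloid cells) at 3.33 CPM per kb were lowest. The place of Bcl2a1b is uncertain, because 57.6% of the 50-base windows of its transcript also occur in another copy. It also shares 401 of its 817 exon bases with Gm29094. Ranges of neighbours in this order overlapped over the 24 libraries. Those of Bcl2 (0.472 to 39.2 CPM per kb) and Bcl2a1b (0.759 to 26.5 CPM per kb) spanned those of several other members.

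**Figure D1:**
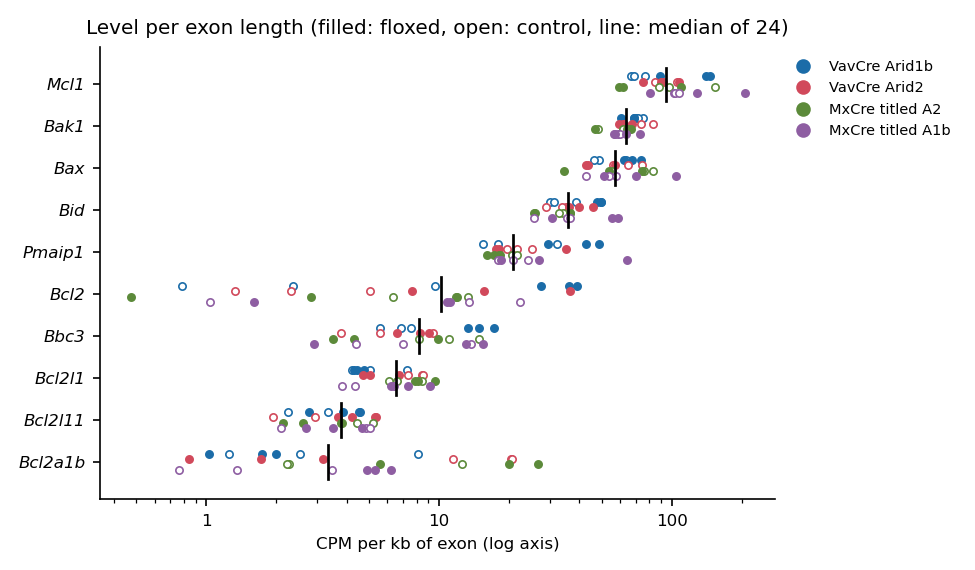
Level of each member as CPM per kb of exon on a log axis, with 1 point per library coloured by set, filled for floxed and open for control, and a black line at the median of 24 libraries. Mcl1 is highest at a median of 94.6 CPM per kb and Bcl2a1b lowest at 3.33 CPM per kb, and the points of Bcl2 and Bcl2a1b are the most widely scattered. The place of Bcl2a1b is uncertain, because the Bcl2a1 copies share sequence.

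Bcl2 and Bcl2a1b were the variable members and Bak1 the steady one. The highest library held 83.1 times the Bcl2 level of the lowest (359 CPM in VavCre Arid1b floxed 3 against 4.32 CPM in MxCre titled A2 floxed 1), and the SD of its log2 CPM exceeded that of 96.4% of tested genes. For Bcl2a1b the ratio was 34.9 (21.7 CPM in MxCre titled A2 floxed 1 against 0.620 CPM in MxCre titled A1b control 1), above 92.9% of genes. Library MxCre titled A2 floxed 1 thus held the lowest Bcl2 and the highest Bcl2a1b. Bbc3 spanned 5.92 times, Pmaip1 4.14 times, Mcl1 3.48 times, Bax 3.04 times, Bcl2l11 2.77 times, Bcl2l1 2.53 times and Bid 2.29 times. Bak1 ran from 113 to 200 CPM, a ratio of 1.77, and varied more than 9.17% of genes.

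**Figure D2:**
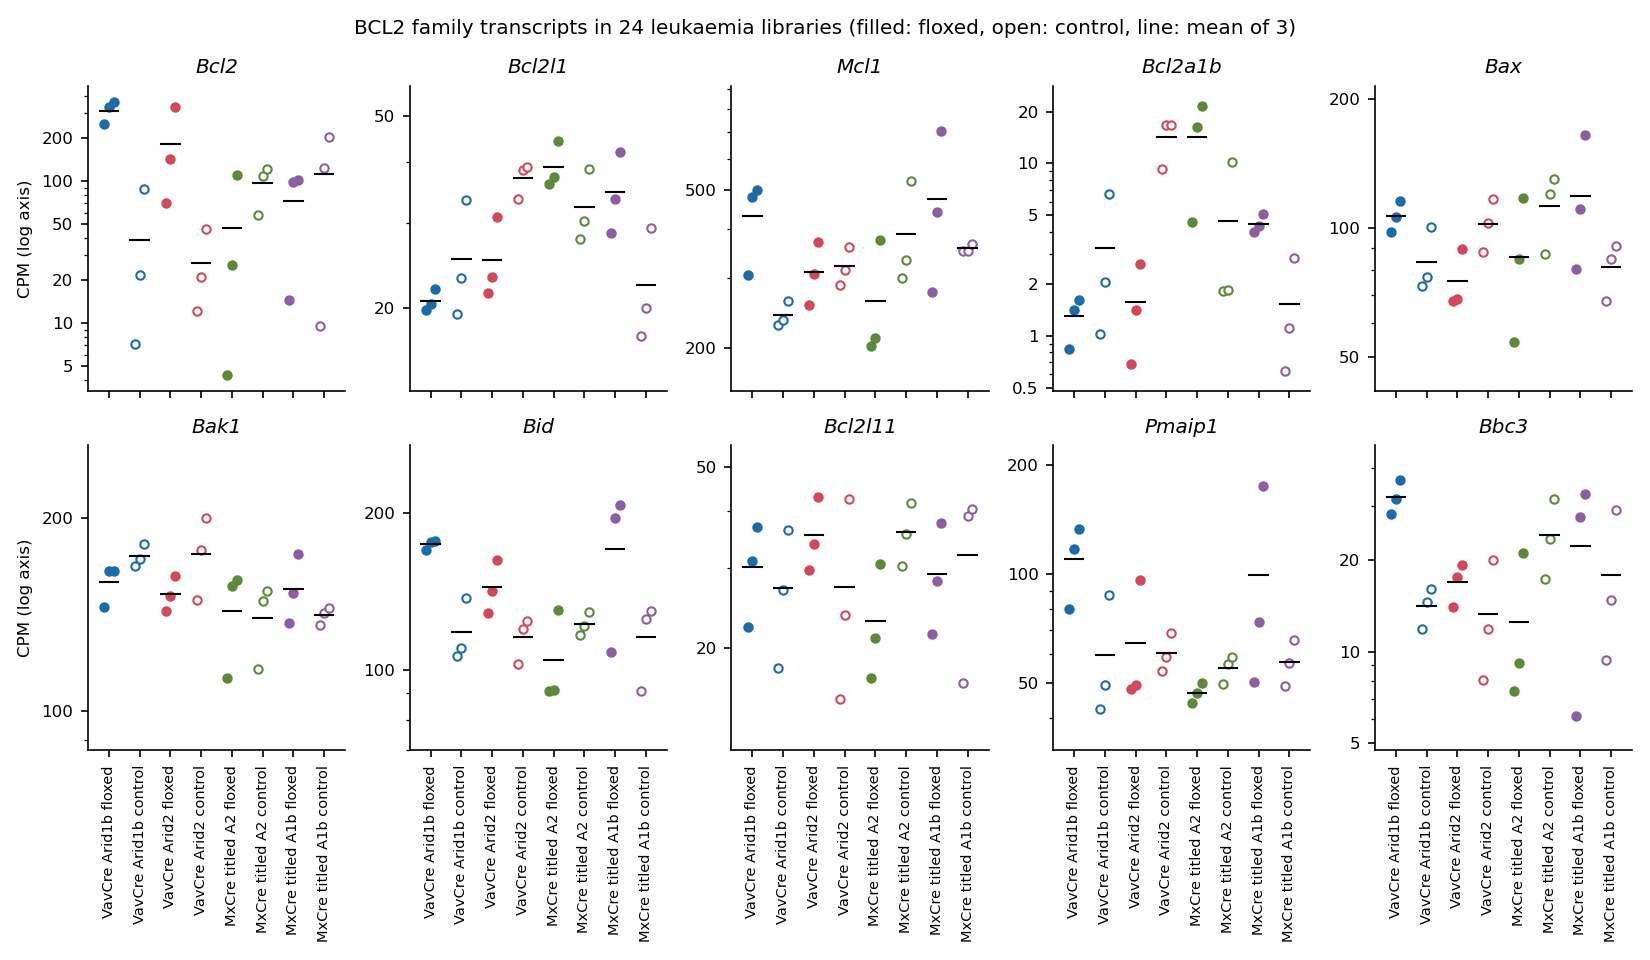
CPM of each member (log axes) in the 8 groups, floxed left of control within each set, with points for the 3 libraries of a group in order of level and a line at their mean. Bcl2 in VavCre Arid1b lies at 250 to 359 CPM in floxed libraries, above every control library of that set, while Bak1 stays within 113 and 200 CPM throughout.

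Among the pro-survival genes, Bcl2 was higher in every floxed library than in every control of its set in both VavCre sets. The arms of 32.4% of all genes did not overlap in VavCre Arid1b, and those of 36.1% in VavCre Arid2. Bcl2, on chromosome 1 (106538178 to 106714274, minus strand), encodes the founding pro-survival protein. In the VavCre Arid1b set it had 331, 359 and 250 CPM in floxed libraries, against 21.6, 87.5 and 7.15 CPM in controls. Every floxed library lay above every control, although the controls alone ran from 7.15 to 87.5 CPM. The log2 fold change was 3.02 ± 1.13 (SE), 8.10-fold, with an edgeR adjusted p of 0.113. It was 4.45 without control 2 and 2.55 without control 3. In the VavCre Arid2 set Bcl2 had 143, 335 and 70.1 CPM in floxed libraries, against 21.2, 12.2 and 46.0 CPM in controls. The groups again did not overlap, and the log2 fold change was 2.79 ± 1.12 (SE), 6.90-fold, with an edgeR adjusted p of 0.183, and it was 2.01 without floxed 2 and 3.45 without control 3. In MxCre titled A2 the values were 4.32, 25.7 and 110 CPM in floxed and 57.9, 122 and 108 CPM in control libraries, and in MxCre titled A1b 14.7, 102 and 98.7 CPM in floxed and 123, 9.53 and 203 CPM in control libraries. These groups overlapped, with log2 fold changes of -1.05 (SE 1.06, edgeR adjusted p = 0.791) and -0.64 (SE 1.06, edgeR adjusted p = 0.789). The difference between the VavCre Arid1b and MxCre titled A2 fold changes was 4.07 on the log2 scale (SE 1.54, edgeR adjusted p = 0.108) and that between VavCre Arid1b and VavCre Arid2 was 0.23 (95% interval -2.89 to 3.35). Ordered by mean, Bcl2 ran from 314 ± 56.5 CPM in VavCre Arid1b floxed and 183 ± 137 CPM in VavCre Arid2 floxed libraries down to 38.8 ± 42.8 CPM in VavCre Arid1b control and 26.5 ± 17.5 CPM in VavCre Arid2 control libraries (SD, n = 3 each), with the MxCre groups between, and the ranges of neighbouring groups overlapped. Bcl2 passed in no set by edgeR, but DESeq2 (adjusted p = 0.0350) and voom with sample weights (adjusted p = 0.00378) called it in VavCre Arid1b. Voom also called it in VavCre Arid2 (adjusted p = 0.00733).

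Bcl2a1b was the member with a called difference between sets. It lies on chromosome 9 (89199209 to 89207827, plus strand), and its pro-survival product A1 is induced in maturing and activated myeloid cells. It had 1.41, 0.686 and 2.59 CPM in VavCre Arid2 floxed libraries, against 16.6, 16.8 and 9.34 CPM in controls. The highest floxed library was well below the lowest control. The log2 fold change was -3.19 ± 0.81 (SE), with an edgeR adjusted p of 0.0546, just short of the threshold of 0.05. It was called in DESeq2 (adjusted p = 0.00105, 7.33% of all genes called) and in voom (adjusted p = 0.000128, 33.2%). It was also called with only the 6 libraries of the set (adjusted p = 0.0309, 7.6%). The fit without the 3 libraries that stood apart called it too (adjusted p = 0.0210, 7.99%). Of the 6 fits without 1 library of the set, 0 called it (edgeR adjusted p = 0.0609 to 0.241). Nor was it called by edgeR with other scalings (adjusted p = 0.0559 and 0.0528) or no filter on low counts (0.0775). The same held with a term for Y-positive libraries (adjusted p = 0.0866) and with a replicate block. In MxCre titled A1b it had 5.06, 4.34 and 4.02 CPM in floxed libraries, against 0.620, 2.84 and 1.10 CPM in controls, the opposite order and again with no overlap (log2 fold change 1.54 ± 0.79 SE, edgeR adjusted p = 0.316). The difference of these 2 fold changes was -4.73 ± 1.12 on the log2 scale (edgeR adjusted p = 0.0433), the 1 call among 10 members in that comparison, where 1.5% of all genes were called. It was no longer called in 8 of the 12 fits that left out 1 library of these sets, with no filter on low counts (adjusted p = 0.0596), with a term for Y-positive libraries (adjusted p = 0.0975) or with the copies summed (adjusted p = 0.104). The counts behind it were small, between 8 and 638 per library.

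In MxCre titled A2, Bcl2a1b had 21.7, 16.3 and 4.57 CPM in floxed libraries, against 10.2, 1.84 and 1.81 CPM in controls. Its groups overlapped there through floxed 3 and control 1 (log2 fold change 1.61 ± 0.76 SE, edgeR adjusted p = 0.472). In VavCre Arid1b it had 1.42, 0.841 and 1.62 CPM in floxed libraries, against 1.02, 2.06 and 6.65 CPM in controls (log2 fold change -1.33 ± 0.78 SE, edgeR adjusted p = 0.320). Without control 3 the log2 fold change was -0.22. Over the 8 groups the F test called Bcl2a1b at an edgeR adjusted p of 0.0187, also in each of the 24 fits without 1 library.

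Bcl2a1b cannot be read as a separate gene. It took 3286 of 6006 reads given to its 4 copies, with a share of 31.7% to 77.0% per library (median 56.6%). Of the 50-base windows of its transcript, 57.6% also occur in another copy, and of the 100-base windows 31.1%. It further shares 401 exon bases with Gm29094 on the same strand. Summed over the copies, VavCre Arid2 averaged 3.49 ± 2.98 CPM in floxed and 23.6 ± 8.20 CPM in control libraries (SD, n = 3 each), where edgeR gave -2.76 ± 0.93 (SE) on the log2 scale at an adjusted p of 0.121. With the copies summed, the F test over the 8 groups gave an edgeR adjusted p of 0.0590.

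**Figure D3:**
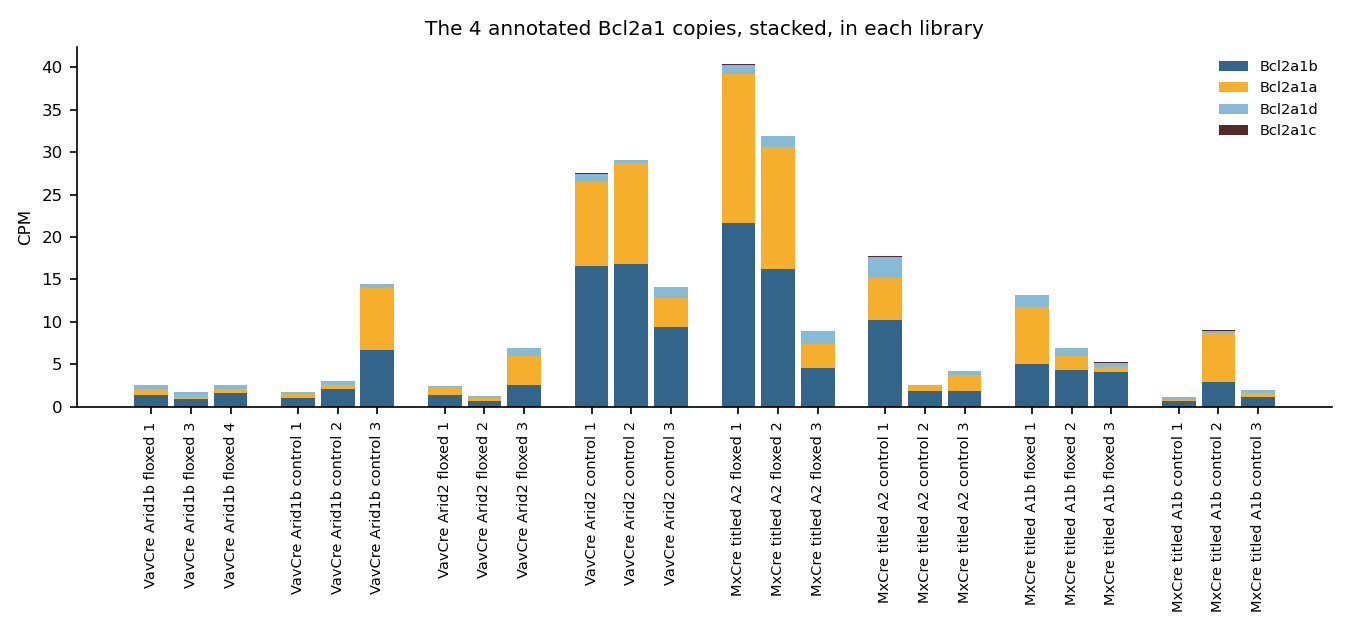
Stacked CPM of the 4 annotated Bcl2a1 copies in each library, floxed left of control within each set. The copies are high and low in the same libraries for the most part, and the tallest bars are MxCre titled A2 floxed 1 at 40.4 CPM and floxed 2 at 32.0 CPM.

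Bcl2l1, which encodes BCL-XL, had 23.2, 21.5 and 30.9 CPM in VavCre Arid2 floxed libraries, against 38.7, 33.6 and 39.2 CPM in controls. The groups did not overlap (log2 fold change -0.56 ± 0.22 SE, edgeR adjusted p = 0.169). In MxCre titled A1b it had 28.5, 42.0 and 33.7 CPM in floxed libraries, against 17.5, 29.3 and 19.99 CPM in controls, with control 2 inside the floxed range (log2 fold change 0.64 ± 0.22 SE, edgeR adjusted p = 0.163). Without floxed 1 of that set Bcl2l1 was called, in a fit that called 10.7% of all genes. The difference of these fold changes was -1.20 ± 0.31 on the log2 scale (edgeR adjusted p = 0.0567). Bcl2l1 stayed at 19.8 to 21.9 CPM in VavCre Arid1b floxed and 19.4 to 33.4 CPM in control libraries, and at 36.0 to 44.3 CPM in MxCre titled A2 floxed and 27.8 to 38.8 CPM in control libraries. The F test over the 8 groups called it (edgeR adjusted p = 0.0374), though in 10 of 24 fits without 1 library. Bcl2l1 and Bcl2a1b were the 2 of 10 members called by that test, where 7.98% of all genes were called, and 5 had an unadjusted p under 0.05, as did 29.2% of all genes.

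Mcl1 had 306, 501 and 481 CPM in VavCre Arid1b floxed libraries, against 229, 236 and 263 CPM in controls. All floxed libraries were higher, and the log2 fold change was 0.82 ± 0.30 (SE), 1.77-fold, with an edgeR adjusted p of 0.0975. In VavCre Arid2 the arms lay together, at 257 to 369 CPM in floxed and 289 to 360 CPM in control libraries. In MxCre titled A2 Mcl1 had 203, 212 and 375 CPM in floxed libraries, against 526, 333 and 301 CPM in controls, and in MxCre titled A1b 276, 440 and 704 CPM in floxed libraries, against 351, 352 and 367 CPM in controls. Both MxCre pairs overlapped (log2 fold changes -0.56 and 0.41, edgeR adjusted p = 0.534 and 0.488).

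The effector genes were called in no set by edgeR or DESeq2, while voom called Bax in VavCre Arid1b (adjusted p = 0.0482) and Bak1 in VavCre Arid2 (adjusted p = 0.0313), where it called 29.7% and 33.2% of all genes. Bak1 had 145, 166 and 165 CPM in VavCre Arid1b floxed libraries, against 182, 168 and 172 CPM in controls. These did not overlap, but the log2 fold change was -0.13 ± 0.15 (SE, edgeR adjusted p = 0.616). Over the other sets its log2 fold changes lay between -0.21 and 0.14, with 95% intervals from -0.51 to 0.44. Bax averaged 107 ± 8.90 CPM in VavCre Arid1b floxed and 83.5 ± 14.8 CPM in control libraries, and 75.3 ± 12.4 CPM in VavCre Arid2 floxed and 103 ± 14.5 CPM in control libraries (SD, n = 3 each). Its log2 fold changes were 0.35, -0.44, -0.39 and 0.55 in VavCre Arid1b, VavCre Arid2, MxCre titled A2 and MxCre titled A1b, with edgeR adjusted p of 0.287 or more. MxCre titled A1b floxed 2, one of the libraries that stood apart, had the highest Bax level at 165 CPM.

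Of the BH3-only genes, Bid and Bbc3 were higher in every VavCre Arid1b floxed library than in every control, and edgeR called neither. The arms of 32.4% of all genes did not overlap in that set. Bid had 177, 176 and 170 CPM in VavCre Arid1b floxed libraries, against 106, 110 and 138 CPM in controls. The floxed values were tightly grouped, and the log2 fold change was 0.56 ± 0.20 (SE, edgeR adjusted p = 0.0987). In VavCre Arid2 Bid had 142, 162 and 129 CPM in floxed libraries, against 124, 102 and 120 CPM in controls, also without overlap (log2 fold change 0.32 ± 0.20 SE, edgeR adjusted p = 0.402). In MxCre titled A1b it had 108, 196 and 208 CPM in floxed libraries, against 125, 91.1 and 130 CPM in controls, with floxed 1 inside the control range (log2 fold change 0.56 ± 0.20 SE, edgeR adjusted p = 0.176). Without floxed 1 of that set Bid was called, as were 10.7% of all genes. In MxCre titled A2 the values were 90.9, 91.4 and 130 CPM in floxed and 121, 117 and 129 CPM in control libraries. Averaged over the 4 sets, Bid had a log2 fold change of 0.30 ± 0.10 (SE, unadjusted p = 0.00761, edgeR adjusted p = 0.132), the smallest p of the members.

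Bbc3 had 28.2, 36.5 and 31.6 CPM in VavCre Arid1b floxed libraries, against 11.8, 16.1 and 14.6 CPM in controls, a 2.27-fold difference with no overlap (log2 fold change 1.18 ± 0.51 SE, edgeR adjusted p = 0.168). In MxCre titled A2 it had 7.44, 9.17 and 21.0 CPM in floxed libraries, against 23.4, 17.3 and 31.6 CPM in controls, where floxed 3 reached into the control range (log2 fold change -0.95 ± 0.51 SE, edgeR adjusted p = 0.540). Bbc3 averaged 16.9 ± 2.64 CPM in VavCre Arid2 floxed and 13.3 ± 6.11 CPM in control libraries, and 22.2 ± 14.2 CPM in MxCre titled A1b floxed and 17.8 ± 10.3 CPM in control libraries (SD, n = 3 each).

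Pmaip1 had 118, 133 and 80.2 CPM in VavCre Arid1b floxed libraries, against 42.2, 49.1 and 87.5 CPM in controls, with control 3 inside the floxed range (log2 fold change 0.89 ± 0.37 SE, edgeR adjusted p = 0.145). Without the 3 libraries that stood apart, which include that control, Pmaip1 was called. In MxCre titled A1b it had 73.8, 50.2 and 175 CPM in floxed libraries, against 65.9, 56.9 and 48.9 CPM in controls, with floxed 3 far above the rest (log2 fold change 0.80 ± 0.37 SE, edgeR adjusted p = 0.267). Bcl2l11 kept to 15.5 to 42.8 CPM, its arms overlapped in all 4 sets, and its log2 fold changes were 0.15, 0.38, -0.65 and -0.14 in VavCre Arid1b, VavCre Arid2, MxCre titled A2 and MxCre titled A1b (edgeR adjusted p of 0.571 or more).

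**Figure D4:**
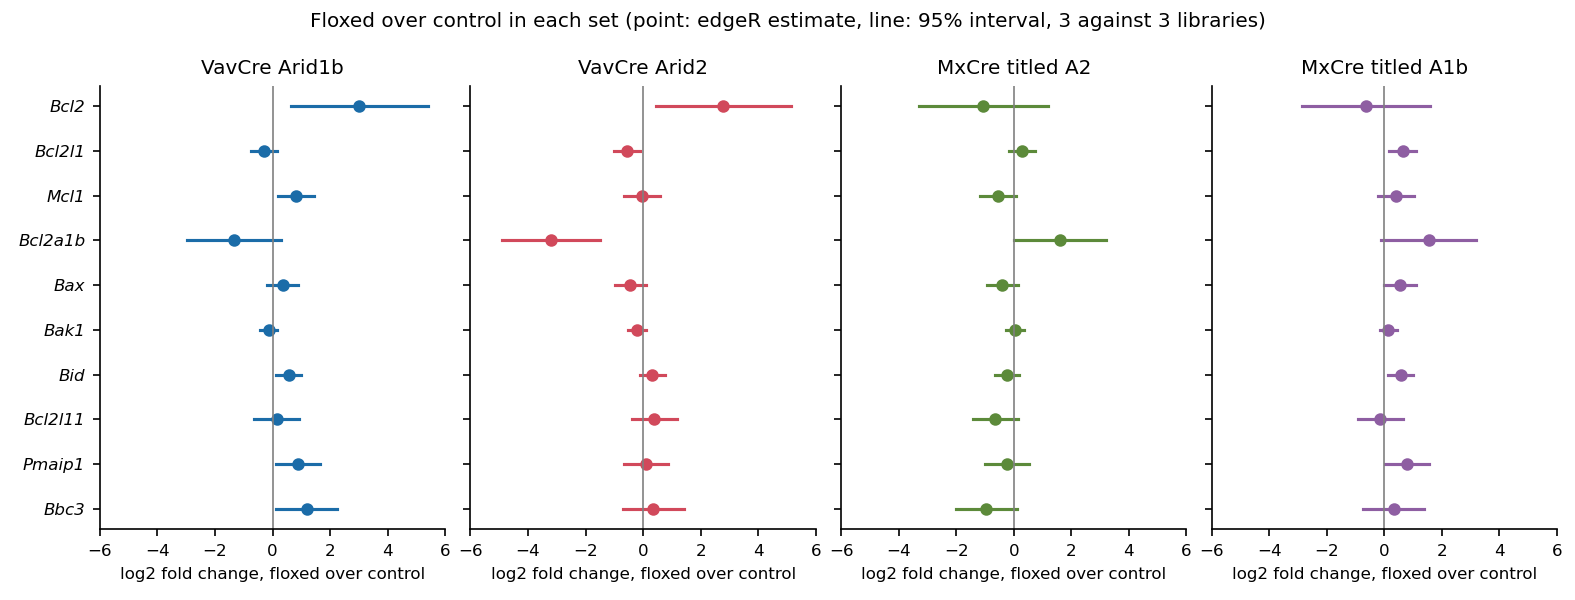
Log2 fold change, floxed over control, of each member in each set (points, edgeR estimates) with 95% intervals (lines). Bcl2 sits at 3.02 and 2.79 in the VavCre sets and below 0 in the MxCre sets, Bcl2a1b runs the other way, and Bak1 lies close to 0 in all 4.

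Counted over the family, 0 of 10 members passed an adjusted p of 0.05 by edgeR in VavCre Arid1b, where 6.57% of all genes did, in VavCre Arid2 (1.31% of genes), in MxCre titled A2 (0.0284%), in MxCre titled A1b (0.00709%) or in the average over the sets (1.72%). At an unadjusted p under 0.05 there were 5 of 10 in VavCre Arid1b (24% of all genes), 3 in VavCre Arid2 (19.5%), 1 in MxCre titled A2 (10.6%), 4 in MxCre titled A1b (17.4%) and 2 in the average (16.7%). DESeq2 called 1 in VavCre Arid1b (12% of genes) and 1 in VavCre Arid2 (7.33%), so the members' share was near that of all genes. Arms did not overlap for 5 of 10 members in VavCre Arid1b, against 32.4% of all genes, for 4 of 10 in VavCre Arid2 (36.1%), for 0 of 10 in MxCre titled A2 (15%) and for 1 of 10 in MxCre titled A1b (14.1%). The median log2 fold change of the 10 was 0.46 in VavCre Arid1b, 0.02 in VavCre Arid2, -0.31 in MxCre titled A2 and 0.48 in MxCre titled A1b, while that of all 14099 genes lay between -0.06 and 0.02. Leaving out floxed 3 of MxCre titled A2 gave 5 members (Bcl2, Bbc3, Bid, Mcl1 and Bcl2a1b) whose fold change differed between VavCre Arid1b and MxCre titled A2, where 0 did with it, and 14.5% of all genes were called in that fit against 7.35% with all libraries.

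Fold changes were also set against each other between sets. Of 10 members, 0 were called by edgeR in VavCre Arid1b minus VavCre Arid2 (0.0142% of all genes), in VavCre Arid1b minus MxCre titled A2 (7.35%), in VavCre Arid1b minus MxCre titled A1b (0.745%), in VavCre Arid2 minus MxCre titled A2 (0.489%) or in MxCre titled A2 minus MxCre titled A1b (0.192%). DESeq2 called 4 members in VavCre Arid1b minus MxCre titled A2 (12.7% of genes) and 1 in VavCre Arid2 minus MxCre titled A2 (4.6%), and voom called 4 in the first of these differences, 6 in the second and 8 in VavCre Arid2 minus MxCre titled A2 (17.6%, 33.3% and 33.8% of genes).

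Differences between the Cre systems were examined in the controls alone. MxCre controls against VavCre controls gave 0 of 10 members called by edgeR (0.00709% of all genes) and 3 at an unadjusted p under 0.05 (11.6% of all genes). Those were Bcl2 (log2 difference 1.70 ± 0.76 SE), Bcl2a1b (-1.35 ± 0.54) and Bak1 (-0.32 ± 0.10), with edgeR adjusted p of 0.423, 0.391 and 0.384. Cre, pIpC and the making of the sets cannot be told apart in this comparison.

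Bcl2 and Bcl2a1b ran in opposite directions from library to library. Over the 24 libraries the Pearson correlation of their log2 CPM was -0.71, and it was -0.71 within groups as well. Bcl2l1 went with Bcl2a1b (0.81 over libraries, 0.50 within groups) and against Bcl2 (-0.57). Bbc3 went with Bcl2 (0.79) and with Bid (0.79, and 0.86 within groups). These correlations are descriptions over 24 libraries that share groups and a scaling.

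**Figure D5:**
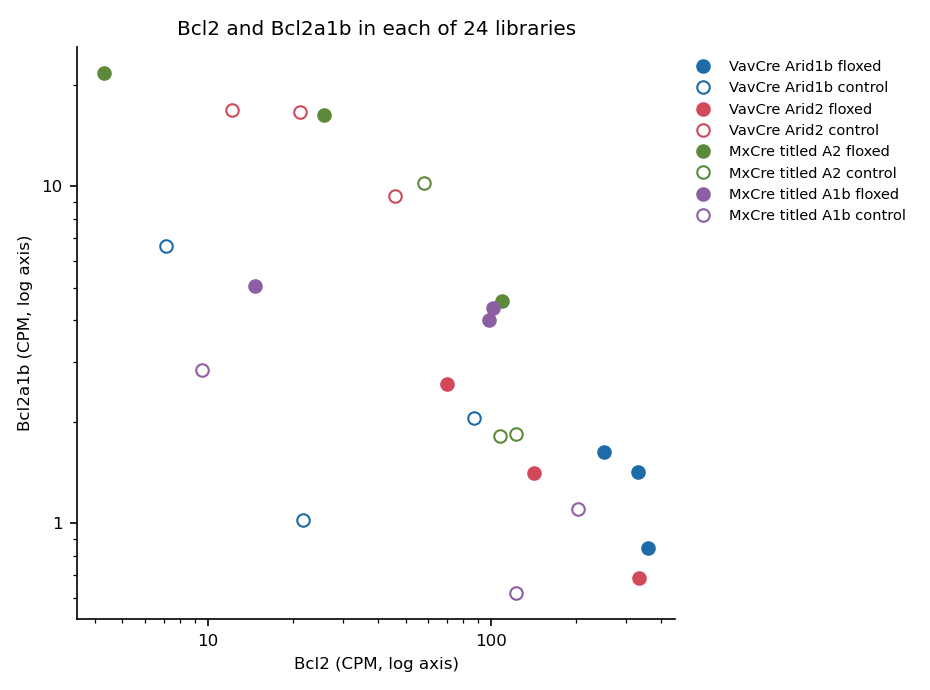
Bcl2 against Bcl2a1b in CPM on log axes, 1 point per library, coloured by set, filled for floxed and open for control. Libraries with Bcl2 above 200 CPM all have Bcl2a1b below 2 CPM, and the correlation of the log2 values is -0.71.

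A sum of neutrophil genes went with Bcl2l1 and Bcl2a1b and against Bcl2. The 12 genes were S100a8, S100a9, Ltf, Ngp, Camp, Lcn2, Mmp8, Mmp9, Elane, Mpo, Prtn3 and Cebpe. Their summed level correlated at 0.82 with Bcl2l1, at 0.73 with Bcl2a1b and at -0.58 with Bcl2 over the 24 libraries. Within groups the values were 0.73, 0.54 and -0.39. The share of single genes in this sum was not examined, so the sum is not read as a measure of maturation. Its range was 2397 to 11786 CPM in VavCre Arid2 floxed and 11023 to 18260 CPM in control libraries, with a median log2 fold change over the 12 genes of -2.04 and 1 of 12 called lower. In MxCre titled A2 it was 15340 to 21731 CPM in floxed and 7135 to 9923 CPM in control libraries (median log2 fold change 0.79, 0 of 12 called), in MxCre titled A1b the median was 1.13 (0 of 12 called), and in VavCre Arid1b -0.68 (1 of 12 called lower). The sign of that median matched the sign of the Bcl2a1b and Bcl2l1 fold changes in each set. The 10 antigen presentation and dendritic genes (H2-Aa, Cd74, Itgax and others) summed to 237 to 2549 CPM in VavCre Arid1b floxed and 30.8 to 52.6 CPM in control libraries, with 9 of 10 called higher, and 3 of 9 tested monocyte and macrophage genes were called higher there. Over the 24 libraries the dendritic sum correlated at 0.69 with Bbc3, 0.69 with Mcl1, 0.65 with Bid and 0.60 with Bcl2. The closest list to Bcl2 was that of 7 stromal and endothelial genes, whose sum correlated at 0.78 with Bcl2 (0.90 within groups), 0.66 with Bbc3 and -0.65 with Bcl2a1b. Pecam1, which leukocytes also express, made up a median of 86.6% of that sum and alone correlated at 0.87 with Bcl2, while the other 6 genes lay between -0.58 and -0.08. The sum was 261 to 420 CPM in VavCre Arid1b floxed and 88.2 to 303 CPM in control libraries, and 137 to 239 CPM in VavCre Arid2 floxed and 115 to 170 CPM in control libraries, with 0 of 6 tested genes called in either set by edgeR. The sum of 7 B-lineage genes correlated at 0.19 with Bcl2 over libraries and at 0.80 within groups, with Cd79b a median of 90.8% of it. The part of these cell states in the values of the members was not tested, and in bulk RNA fewer cells of a type and less RNA per cell cannot be told apart.

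The genes most like each member over the 24 libraries, by the correlation of log2 CPM, differed from member to member. Bcl2 was closest to Abcb1b (0.96), a drug efflux transporter, and Slc44a2 (0.96), a choline transporter. Bcl2l1 was closest to Penk (0.91) and Olfml2b (0.88), and Mcl1 to the transcription factor Klf6 (0.91) and the microRNA host Mir22hg (0.91). Bcl2a1b was closest to its copy Bcl2a1a (0.91) and to Dcbld1 (0.89), Bid to the fructose transporter Slc2a5 (0.88) and to Casp2 (0.85), and Bcl2l11 to the stress kinase Map3k5 (0.90) and Lrrc8d (0.89). Bbc3 was closest to Epha2 (0.89) and the interferon receptor subunit Ifnar2 (0.88). The nearest genes were less close for Bax (0610012G03Rik, 0.83), Bak1 (Nop9, 0.80) and Pmaip1 (Fxr1, 0.76).

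The rest of the apoptosis pathway was read from 59 further genes, of which 53 were tested. In VavCre Arid1b 3 of 53 were called (5.66%, against 6.57% of all genes), 1 of them higher. Birc3, an inhibitor of apoptosis induced by NF-kB, had 53.4, 84.98 and 88.8 CPM in floxed libraries, against 41.2, 39.5 and 30.6 CPM in controls, and rose 2.04-fold (edgeR adjusted p = 0.0442). Of the 6 fits without 1 library of the set, 1 kept the call of Birc3. With a term for Y-positive libraries the log2 fold change of Birc3 was 0.85 (edgeR adjusted p = 0.307). That term cannot tell sex from the floxed arm in this set.

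In VavCre Arid2 1 of 53 was called (1.89%, against 1.31% of all genes). Fas, the death receptor whose signal reaches BID through caspase 8, had 0.339, 0.137 and 1.56 CPM in floxed libraries, against 16.2, 10.6 and 15.1 CPM in controls. It fell by 4.36 on the log2 scale (SE 0.81, edgeR adjusted p = 0.0150), on 69 counts in the floxed and 1363 in the control libraries. In the same set the summed level of 7 B-lineage genes was 2.65 to 6.09 CPM in floxed and 23.0 to 31.9 CPM in control libraries, with 1 called lower, and its part in the Fas value was not tested. The edgeR adjusted p of Fas was 0.0954 without floxed 1, 0.0892 without floxed 2 and 0.0682 with the replicate block. Fas was also the 1 gene of the 53 called in the average over the sets (log2 fold change -1.70 ± 0.36 SE, edgeR adjusted p = 0.0245). That call was lost without VavCre Arid1b floxed 3 (edgeR adjusted p = 0.0518) and with the replicate block, which called 0 genes in the average. Over the alternatives other than single left-out libraries, the adjusted p of Fas in the average reached 0.155. It had 1.94, 3.72 and 5.41 CPM in VavCre Arid1b floxed libraries, against 8.45, 4.69 and 18.1 CPM in controls, averaged 5.14 ± 4.38 CPM in MxCre titled A2 floxed and 11.2 ± 3.31 CPM in control libraries, and averaged 10.96 ± 2.62 CPM in MxCre titled A1b floxed and 9.81 ± 2.14 CPM in control libraries (SD, n = 3 each).

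In both MxCre sets 0 of 53 pathway genes were called by edgeR, with 3 at an unadjusted p under 0.05 in MxCre titled A2 and 7 in MxCre titled A1b. In the lists with no call, the gene with the smallest p was as follows. Atf4, a stress factor that induces BH3-only genes, had a log2 fold change of -0.68 (edgeR adjusted p = 0.0631) in VavCre Arid2. Vdac2, a mitochondrial channel that binds BAK, had -0.64 there (edgeR adjusted p = 0.0632). Both were called there by DESeq2 (adjusted p = 0.0108 and 0.0110, 7.33% of all genes called) and by voom (0.000704 and 0.000208, 33.2%). Both were also called with only the 6 libraries of the set (7.6%) and without the 3 libraries that stood apart (7.99%). Of the 6 fits without 1 library of the set, 0 called either gene. The BH3-only gene Bik had -2.55 in MxCre titled A2 (edgeR adjusted p = 0.303) on 4 counts in floxed and 25 in control libraries. Bnip2 had -0.31 there (edgeR adjusted p = 0.333), and voom called it (adjusted p = 0.0401, 8.53% of all genes called). The Bcl2a1a copy had -2.61 in VavCre Arid1b (edgeR adjusted p = 0.242). Of the other family genes, Bcl2l2 was expressed at 28.8 to 45.5 CPM and Bad at 30.4 to 72.6 CPM. Bok reached at most 1.31 CPM, while Bcl2l10 had 2 counts in all, Hrk 12 and Bcl2l15 94.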

How the data were processed

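The authors' deposited table holds whole-number read counts per gene symbol for 24 libraries. Per the labels' protocols, polyadenylated RNA extracted with TRIzol was made into directional libraries, and the aligner was STAR and the build mm10, per the submitters' processing notes. Which counter, annotation and strand setting were used is not stated, so exons shared with a neighbour (628 bases of Bid with Bcl2l13, 614 of Bak1 with Ggnbp1, 558 of Bcl2 with an antisense gene, 192 of Bax with Gm45808) are uncertain.

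Column names match the titles of the 24 samples, and 0 columns of other samples were present. Genes were filtered with filterByExpr (minimum count 10, total 15) and fitted by the quasi-likelihood method of edgeR 4.0.16 in R 4.3.3 with robust estimation and 8 group means, leaving 16 residual degrees of freedom and a common biological coefficient of variation of 0.4. Benjamini-Hochberg adjustment ran over all 14099 genes, and a call is an adjusted p under 0.05. The script was tested on simulated data. Correlations used log2 CPM. Alternatives were DESeq2 1.42.0, voom in limma 3.58.1 with sample weights, other scalings, no filter, single sets, a replicate block, a Y-positive term (Kdm5d above 10 CPM) and left-out libraries. Summing the Bcl2a1 copies, leaving out libraries in the 8-group and control comparisons, and the repeats for pathway genes were chosen after seeing the data. Exon lengths are from GENCODE M21 (GRCm38), and 9 of 10 members matched a RefSeq promoter. All members, called pathway genes, otherwise the 1 gene per list with the smallest p in any set, and the 2 genes most correlated with each member were eligible for naming. The members and gene lists were chosen with earlier results of these data known. Replicates differed beyond sampling noise, with a mean chi-square per gene of 15.5 to 463 over 24 pairs. Some called pathway genes are not reported here.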

Additional observations from a re-analysis of the deposited data

Results flagged for a closer look

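The floxed-over-control fold change of Bcl2a1b differed between VavCre Arid2 and MxCre titled A1b by -4.73 on the log2 scale (SE 1.12, edgeR adjusted p = 0.0433), and this test of the difference between sets is what singled it out. The call was lost in 8 of the 12 fits that left out 1 library of these sets. Summing the Bcl2a1 copies also ended it (edgeR adjusted p = 0.104). Bcl2a1b averaged 1.56 ± 0.964 CPM in floxed and 14.3 ± 4.26 CPM in control libraries of VavCre Arid2, and 4.47 ± 0.533 CPM in floxed and 1.52 ± 1.17 CPM in control libraries of MxCre titled A1b (SD, n = 3 each). All 3 floxed libraries were lower than all controls in VavCre Arid2, and all 3 were higher in MxCre titled A1b. The 2 floxed means were 1.56 and 4.47 CPM and the 2 control means 14.3 and 1.52 CPM, so the control groups lay farther apart.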

How the results depend on the processing

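The log2 fold changes and p-values of the members, recomputed under alternatives other than single left-out libraries, kept direction and side of the threshold in 656 of 737 cases, with 57 gaining a call, 6 losing it and 18 changing sign. Leaving out 1 library gave 974 of 1056 unchanged in this sense, with 15 gained, 22 lost and 45 reversed. For the differences between sets, both tallies hold only Bcl2, Bcl2l1 and Bcl2a1b, so calls gained there by other members are not in them. The 8-group test has no direction and enters by its side of the threshold alone. The counts of members called that follow cover all 10. The tool mattered most. With voom and sample weights, members called numbered 6 in VavCre Arid1b (29.7% of all genes called), 5 in VavCre Arid2 (33.2%), 3 in MxCre titled A2 (8.53%), 1 in the average (3.82%), 4, 6, 8 and 2 (17.6%, 33.3%, 33.8% and 12.2%) in the differences VavCre Arid1b minus VavCre Arid2, VavCre Arid1b minus MxCre titled A2, VavCre Arid2 minus MxCre titled A2 and VavCre Arid2 minus MxCre titled A1b, 5 between the controls (16.2%) and 10 in the 8-group test (75.8%). DESeq2 gave 1 in VavCre Arid1b (12%), 1 in VavCre Arid2 (7.33%), 4, 1 and 2 in the last 3 of those differences (12.7%, 4.6% and 8.14%) and 5 in the 8-group test (25.7%). Single-set fits gave 1 in VavCre Arid1b (Bbc3, 8.26%) and 1 in VavCre Arid2 (Bcl2a1b, 7.6%). Without the 3 libraries that stood apart there was 1 in VavCre Arid1b (6.54%) and 1 in VavCre Arid2 (7.99%), and there were 4, 2 and 2 in the same differences (12.9%, 13.9% and 5.15%) and 4 in the 8-group test (22.1%). With no filter the 8-group test kept 1 (3.48%) and VavCre Arid2 minus MxCre titled A1b 0 (0.288%). The Y-positive term gave 0 there (0.0496%), 2 in VavCre Arid2 minus MxCre titled A2 (1.81%) and 1 in VavCre Arid1b minus MxCre titled A1b (1.06%).

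The replicate numbers were not taken as pairs in the main fit. Same-number correlations ran from -0.083 to -0.004, 0.041 to 0.239, -0.206 to -0.004 and -0.217 to 0.259 in VavCre Arid1b, VavCre Arid2, MxCre titled A2 and MxCre titled A1b. The same-number library was the best match in 0 of 2, 1 of 3, 0 of 3 and 1 of 3 cases. So few cases cannot show whether the numbers pair the samples. The replicate block gave 0 members in VavCre Arid2 minus MxCre titled A1b (Bcl2a1b adjusted p = 0.128), and averages of -0.024 for Bcl2l1 and -0.028 for Bax.

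Leaving out single libraries, members called ranged from 0 to 2 in MxCre titled A1b, 0 to 1 in the average, 0 to 5 in VavCre Arid1b minus MxCre titled A2, 0 to 1 in VavCre Arid2 minus MxCre titled A2, 0 to 3 in VavCre Arid2 minus MxCre titled A1b and in MxCre titled A2 minus MxCre titled A1b, and 1 to 4 in the 8-group test. The 2 in MxCre titled A1b (Bcl2l1, Bid) came without its floxed 1 (10.7% of genes called), and the 5 came without MxCre titled A2 floxed 3 (14.5%). Genes called over the whole table ranged from 62 to 734 in VavCre Arid1b and 15 to 227 in VavCre Arid2, against 926 and 185 with all libraries, and from 0 to 1535 in MxCre titled A1b, against 1.

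Values that changed sign were not called. With 1 library left out, log2 fold changes ranged from -0.039 to 0.43 for Bcl2l11 in VavCre Arid1b, -0.19 to 0.079 for Mcl1 and -0.30 to 0.27 for Pmaip1 in VavCre Arid2, -0.080 to 0.19 for Bak1 in MxCre titled A2, and -1.18 to 0.12 for Bcl2, -0.45 to 0.066 for Bcl2l11 and -0.080 to 0.89 for Bbc3 in MxCre titled A1b. Averages ranged from -0.026 to 0.090 for Bcl2l1, -0.055 to 0.084 for Bax, -0.067 to 0.0031 for Bak1 and -0.13 to 0.056 for Bcl2l11. The Bcl2 difference ranged from -0.43 to 1.66 between VavCre Arid1b and VavCre Arid2 and from -2.02 to 0.14 between MxCre titled A2 and A1b, where that of Bcl2a1b ranged from -0.76 to 1.41. Between the controls Bax ranged from -0.015 to 0.13, Bid from -0.010 to 0.11 and Pmaip1 from -0.20 to 0.11. Under voom the sign turned for Pmaip1 in VavCre Arid2 (-0.11), average Bcl2a1b (0.20), the Bcl2 difference between the VavCre sets (-0.0082), the Bcl2a1b difference between the MxCre sets (-0.11) and Pmaip1 between the controls (0.091). Under the Y-positive term it turned for Mcl1 in VavCre Arid2 (0.099), Bak1 in MxCre titled A2 (-0.085), Bcl2 in MxCre titled A1b (0.59), the Bcl2l1 differences between the VavCre sets (-0.33) and between the MxCre sets (0.23), and Bax between the controls (-0.011). Without the 3 libraries it turned for Bcl2l11 in VavCre Arid1b (-0.049), average Bcl2a1b (0.047), average Bak1 (0.026), the Bcl2 difference between the VavCre sets (-0.25) and Pmaip1 between the controls (0.091). The cause was not tested. Depth limits Bcl2a1b most, with 8 counts in its lowest library.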
